A study of Mus musculus with 89 samples.

Results

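The proteasome subunit genes are the genes of mouse whose symbols run from Psma to Psmg with a number, and they were taken by symbol from an RNA-seq count table. The table held 48 of them among 26276 rows with a gene symbol. They comprise 8 genes for alpha subunits of the core (Psma), 8 for standard or tissue-restricted beta subunits of the core (Psmb), 3 for the inducible beta subunits of the immunoproteasome (Psmb8, Psmb9 and Psmb10), 6 for ATPases of the regulatory particle (Psmc), 14 for its non-ATPase members (Psmd), 5 for activators and an inhibitor (Psme and Psmf) and 4 for assembly chaperones (Psmg). The cells were V6.5, a mouse embryonic stem (ES) cell line, cultured with LIF and 2i, the inhibitors PD0325901 and CHIR99021. All 6 RNA-seq libraries, controls included, carried the genotype H2afz-FKBP-V, a degradation tag on the gene of the histone variant H2A.Z.1. Of these, 3 libraries were labelled Control and 3 were labelled dTAG, for the degrader molecule that acts on the tag. The sources used here do not state what the controls received, how long dTAG was applied before RNA was taken or whether the line is a single clone. The other 83 of the 89 samples of the series are not analysed here.

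The proteasome is the protease of the cytosol and nucleus that destroys proteins marked with ubiquitin. Its core is a barrel of stacked rings, with alpha subunits guarding the entrance and beta subunits holding the active sites inside, and a regulatory particle at the barrel's end binds the marked protein, removes its ubiquitin and unfolds it with a ring of ATPases. Immune signals such as interferon replace the active beta subunits by those of the immunoproteasome, which yields peptides for antigen presentation. The degrader dTAG joins a tagged protein to a ubiquitin ligase, so the depletion of H2A.Z.1 in this design passes through the proteasome.

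The libraries were unequal. Counts in rows with a symbol ranged from 14091745 to 15652795 in the controls and were 12907095, 2131648 and 1812405 in dTAG replicates 1, 2 and 3. Levels are given as CPM, counts per 1000000 counts in rows with a symbol, and values in a series are always in the order of replicates 1, 2 and 3. Genes for receptors of the sense of smell (Olfr and Vmn, 1462 rows), which ES cells do not use, had a count in 10.9% to 18.2% of rows in the controls, against 23.5%, 71.5% and 97.0% under dTAG. The summed level of 9 ES cell markers, among them Pou5f1, Sox2 and Nanog, was 2616 to 2754 CPM in the controls and 2840, 1688 and 493 CPM under dTAG. The 7 fibroblast markers summed to 18.0 to 30.0 CPM in the controls and to 19.8, 91.0 and 286 CPM under dTAG, with Col3a1 at 0 in every control. The 7 markers of blood and immune cells summed to 21.8 to 28.5 CPM in the controls and to 27.1, 142 and 325 CPM, with none at 0 in every control. All of these fibroblast and blood markers but Thy1 had a control mean under 10 CPM. Of genes with a count at that level, 82.4% and 95.2% stood above every control in dTAG replicates 2 and 3. The rise of these markers is thus common to low genes there. Cd52 stood at 0.469 CPM in dTAG replicate 2, under its control mean of 1.18 CPM. So dTAG replicates 2 and 3 stand apart from the other 4 libraries, and levels below are given for each library. No pair of libraries was a copy (chi-square per gene of at least 9.49). The labels do not say whether replicates are separate cultures, and p-values here measure only a spread between samples that may be technical.

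The 3 dTAG libraries differed from each other in the genes of the standard proteasome. dTAG replicate 1 held most of them near the control levels, dTAG replicate 2 below them and dTAG replicate 3 lower still. Psmb8 and Psmb9 of the immunoproteasome stood above every control in dTAG replicates 2 and 3. So did 82.4% and 95.2% of genes with a count and a control mean under 10 CPM. The proteasome genes together took 0.363%, 0.329% and 0.344% of counts in the controls and 0.367%, 0.259% and 0.132% in the dTAG libraries. The summed level of the constitutive core, which is the 14 alpha and beta genes without Psma8, Psmb11 and the immunoproteasome, was 989, 942 and 984 CPM in the controls (972 ± 26.0, SD, n = 3). In the dTAG libraries that sum was 1066, 668 and 187 CPM, or 109.8%, 68.8% and 19.3% of the control mean. The regulatory particle, with 20 genes, summed to 2127, 1867 and 1982 CPM in the controls (1992 ± 131, SD, n = 3) and to 2105, 1489 and 740.5 CPM under dTAG. That is 106%, 74.7% and 37.2% of its control mean. In dTAG replicate 3, 244 of the 740.5 CPM were those of Psmd1, which overlaps Htr2b and is described below. The core and the regulatory particle were thus ordered alike over the dTAG libraries. In bulk libraries such as these, fewer cells of a type and less RNA per cell cannot be told apart. The levels of the receptor and marker genes moved with these values in dTAG replicates 2 and 3, and their part was not tested.

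Against the range of the 3 controls, the members took different positions in the 3 dTAG libraries. Positions were counted over the 41 members with a control mean of at least 10 CPM, beside the 8876 genes of the table at that level. Those genes were not matched to the members by control level. Position went with control level: under 10 CPM, 82.4% and 95.2% of genes with a count stood above every control in dTAG replicates 2 and 3. In dTAG replicate 1, 19 of the 41 stood above every control, against 28.8% of all genes, and 5 stood below every control, against 18.3%. In dTAG replicate 2, 36 of the 41 stood below every control, against 41.4% of all genes, and 1 stood above, against 38.4%. In dTAG replicate 3, 37 stood below every control, against 42.7%, and 3 stood above, against 49.1%. The median log2 ratio to the control mean, computed as log2((CPM + 1)/(mean control CPM + 1)), over the 41 members was 0.11, -0.50 and -2.01 under dTAG. Over all 8876 genes it was 0.03, -0.04 and 0.13. Of those genes, 66.5%, 19.9% and 15.2% had a log2 ratio below the member median of the same library. A single control set against the mean of the other controls gave member medians of 0.12, -0.09 and 0.04, so the median of dTAG replicate 1 lay within the control-to-control values. These levels are scaled to library totals. The test instead used TMM library sizes, which are larger by factors of 1.23 and 2.49 in dTAG replicates 2 and 3 and smaller in the other libraries, and so lower the level of each gene there relative to the controls. On that scale 40 of the 41 members stood below every control in dTAG replicate 2, against 74.3% of all genes, and 0 above, against 12.9%. The same 2 counts in dTAG replicate 3 were 40, against 79.4%, and 0, against 12.9%. dTAG replicate 1 then had 17 of the 41 above every control, against 22.8%, and 5 below, against 25.0%. Positions below are on library totals unless TMM sizes are named. Members differed less among themselves than genes at large in every library, controls included. The SD of log2 ratios over the members was 0.17, 0.33 and 1.28 under dTAG, against 0.25, 0.74 and 1.85 over all genes. Single controls gave 0.22, 0.21 and 0.23 over the members, against 0.29, 0.28 and 0.26 over all genes.

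**Figure D1:**
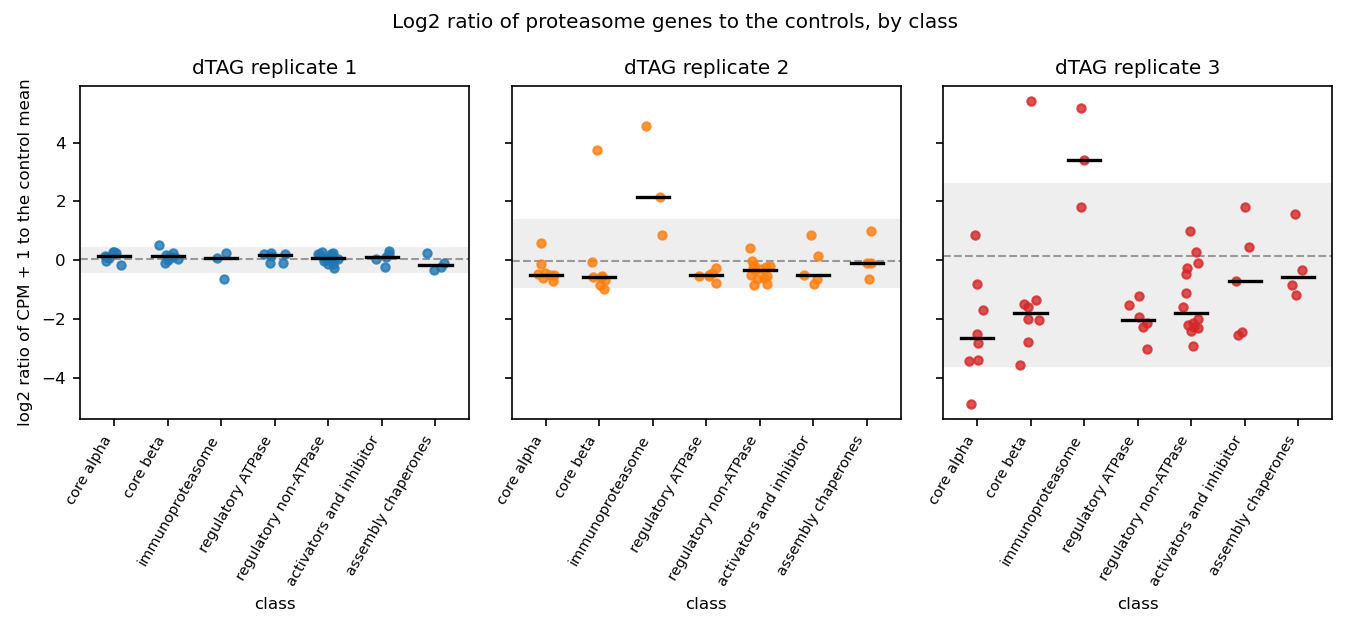
Log2 ratio of each proteasome gene to the control mean (y axis, log2((CPM + 1)/(mean control CPM + 1))) by class of subunit (x axis), with one panel per dTAG library, points for genes and black bars for class medians; the grey band spans the 5th to 95th percentiles of the 8876 genes with a control mean of at least 10 CPM and the dashed line is their median. Core and regulatory genes lie near 0 in dTAG replicate 1 and mostly below 0 in dTAG replicates 2 and 3, where Psmb8 lies at 4.55 and 5.17.

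Below every control in all 3 dTAG libraries stood 5 of the 41 members (12.2%), against 6.19% of all genes at that level. They were Psma3 and Psmc1, the assembly chaperone Psmg1, the nuclear activator Psme3 and Psmd11, a scaffold subunit of the lid. None of the 41 stood above every control in all 3 dTAG libraries, against 10.7% of all genes. In dTAG replicate 1 the lowest log2 ratios among the 41 belonged to Psmg1 (-0.32) and Psmd11 (-0.26), and these lie within the spread of single genes between controls, whose 5th to 95th percentiles ran from -0.53 to 0.37 in control replicate 2.

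The promoters of the members were searched for letters known from proteasome control. In mammals the transcription factor Nfe2l1 (Nrf1) raises proteasome genes together when proteasome activity is short, through the antioxidant response element, and NF-Y, which binds the CCAAT box, has also been linked to these genes. RefSeq windows of GRCm38.p6, from 250 bases before to 50 bases after each start, were at hand for 40 of the 48 members. The core TGACNNNGC on either strand occurred in 6 of the 40 genes, or 15.0%, against 14.0% of 27025 genes with a window. CCAAT on either strand occurred in 14 of the 40, or 35.0%, against 41.1% of all genes, and overlapped none of the 6 element cores. Both shares lie near those of promoters at large, and neither was tested. The 6 matches are shown because they are the only matches to the letters TGACNNNGC in these windows. Each is given 5′ to 3′ on the strand of the gene with the match in capitals. For Psmc6, Psmd12 and Psme4 the match reads as the reverse complement.
Psmb5: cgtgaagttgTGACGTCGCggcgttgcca
Psmb6: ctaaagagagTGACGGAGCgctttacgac
Psmc6: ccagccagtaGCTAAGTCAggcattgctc
Psmd9: atctagccggTGACCCCGCccacttccaa
Psmd12: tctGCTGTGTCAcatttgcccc
Psme4: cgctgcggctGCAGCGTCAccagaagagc
They lie at chr14:54618024-54618052 on the minus strand for Psmb5 and, on the plus strand, at chr11:70525338-70525366 for Psmb6, chr14:45329587-45329615 for Psmc6, chr5:123228149-123228177 for Psmd9, chr11:107479278-107479299 for Psmd12 and chr11:30771758-30771786 for Psme4. Counted from the start of the transcript that each RefSeq window was cut around, the match begins 47 bases before the start of Psmb5, 9 before that of Psmb6, 227 before that of Psmc6, 31 before that of Psmd9, 247 before that of Psmd12 and 7 before that of Psme4. For Psmb6 that start is at position 70525357, inside the gene span given below, so the match lies within the span of the gene. In dTAG replicate 3 these 6 genes ran from 11.5% of the control mean for Psmc6 to 206% for Psmd9. A match is a description of letters, and binding was not measured here.

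The catalytic subunits of the constitutive core stood near the controls in dTAG replicate 1, lower in dTAG replicate 2 and lowest in dTAG replicate 3. Psmb5 (at chr14:54614120-54617995 on the minus strand) encodes the subunit with chymotrypsin-like activity, the main target of proteasome inhibitors. Gene spans here and below are those of RefSeq on GRCm38.p6. It stood at 59.3, 34.3 and 49.7 CPM in the controls and at 52.8, 23.5 and 11.04 CPM under dTAG. The first dTAG value lies among the controls and the other 2 lie below all of them. Psmb6 (chr11:70525324-70527858), with caspase-like activity, stood at 93.9, 82.5 and 88.6 CPM in the controls and at 104, 54.9 and 21.0 CPM under dTAG. Psmb7 (chr2:38588046-38643952), with trypsin-like activity, stood at 95.3, 90.0 and 85.6 CPM and at 93.2, 59.6 and 12.1 CPM. In both genes dTAG replicate 2 lay below every control and dTAG replicate 3 lowest, while dTAG replicate 1 lay above every control for Psmb6 and among them for Psmb7. The ratio of dTAG replicate 3 to the pooled controls was 0.233 (95% interval 0.142 to 0.361) for Psmb5, 0.238 (95% interval 0.168 to 0.327) for Psmb6 and 0.134 (95% interval 0.0842 to 0.204) for Psmb7, with exact intervals that cover counting error only. RefSeq lists pseudogene copies of Psmb5, Psmb6, Psmb7 and Psma5, so the levels of these genes are uncertain where reads could be shared. None of the 3 catalytic genes passed the test over all 6 libraries (Psmb5 log2 fold change -1.02, SE 0.79, adjusted p = 0.440; quasi-likelihood test of edgeR, p adjusted by Benjamini-Hochberg over all genes).

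The ring subunits without an active site held the same order. Psmb1 (chr17:15475721-15498276), a non-catalytic beta subunit, stood at 104, 116 and 110.3 CPM in the controls and at 119, 60.05 and 8.28 CPM under dTAG. Psma4 (chr9:54950781-54958034), an alpha subunit, stood at 109, 107 and 101 CPM and at 126, 75.1 and 8.83 CPM. In both, dTAG replicate 1 lay above every control and the other dTAG libraries below, although on TMM sizes dTAG replicate 1 lay among the controls for Psmb1. Psma7, also of the alpha ring, stood at 95.5, 84.3 and 79.3 CPM in the controls and at 104, 61.0 and 25.9 CPM. Psma2 (chr13:14613242-14625673) had the lowest log2 ratio of the members in dTAG replicate 3, -4.88. Its levels were 65.6, 61.3 and 56.6 CPM in the controls and 63.6, 39.9 and 1.10 CPM under dTAG, the last from 2 counts, which gives a ratio to the pooled controls of 0.0180 (95% interval 0.00218 to 0.0652). Over the 14 constitutive core genes the log2 ratio ranged from -0.18 to 0.27 in dTAG replicate 1, from -0.996 to -0.070 in dTAG replicate 2 and from -4.88 to -0.80 in dTAG replicate 3. All 14 lay below every control in dTAG replicates 2 and 3, against 41.4% and 42.7% of genes with at least 10 CPM. On TMM sizes those shares of genes were 74.3% and 79.4%. In dTAG replicate 1, 7 of the 14 lay above every control, against 28.8%. In dTAG replicate 3 the core genes differed among themselves, where Psma5 stood at 56.8% of its control mean and Psma1 at 7.95%, a pair named after their values were seen.

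**Figure D2:**
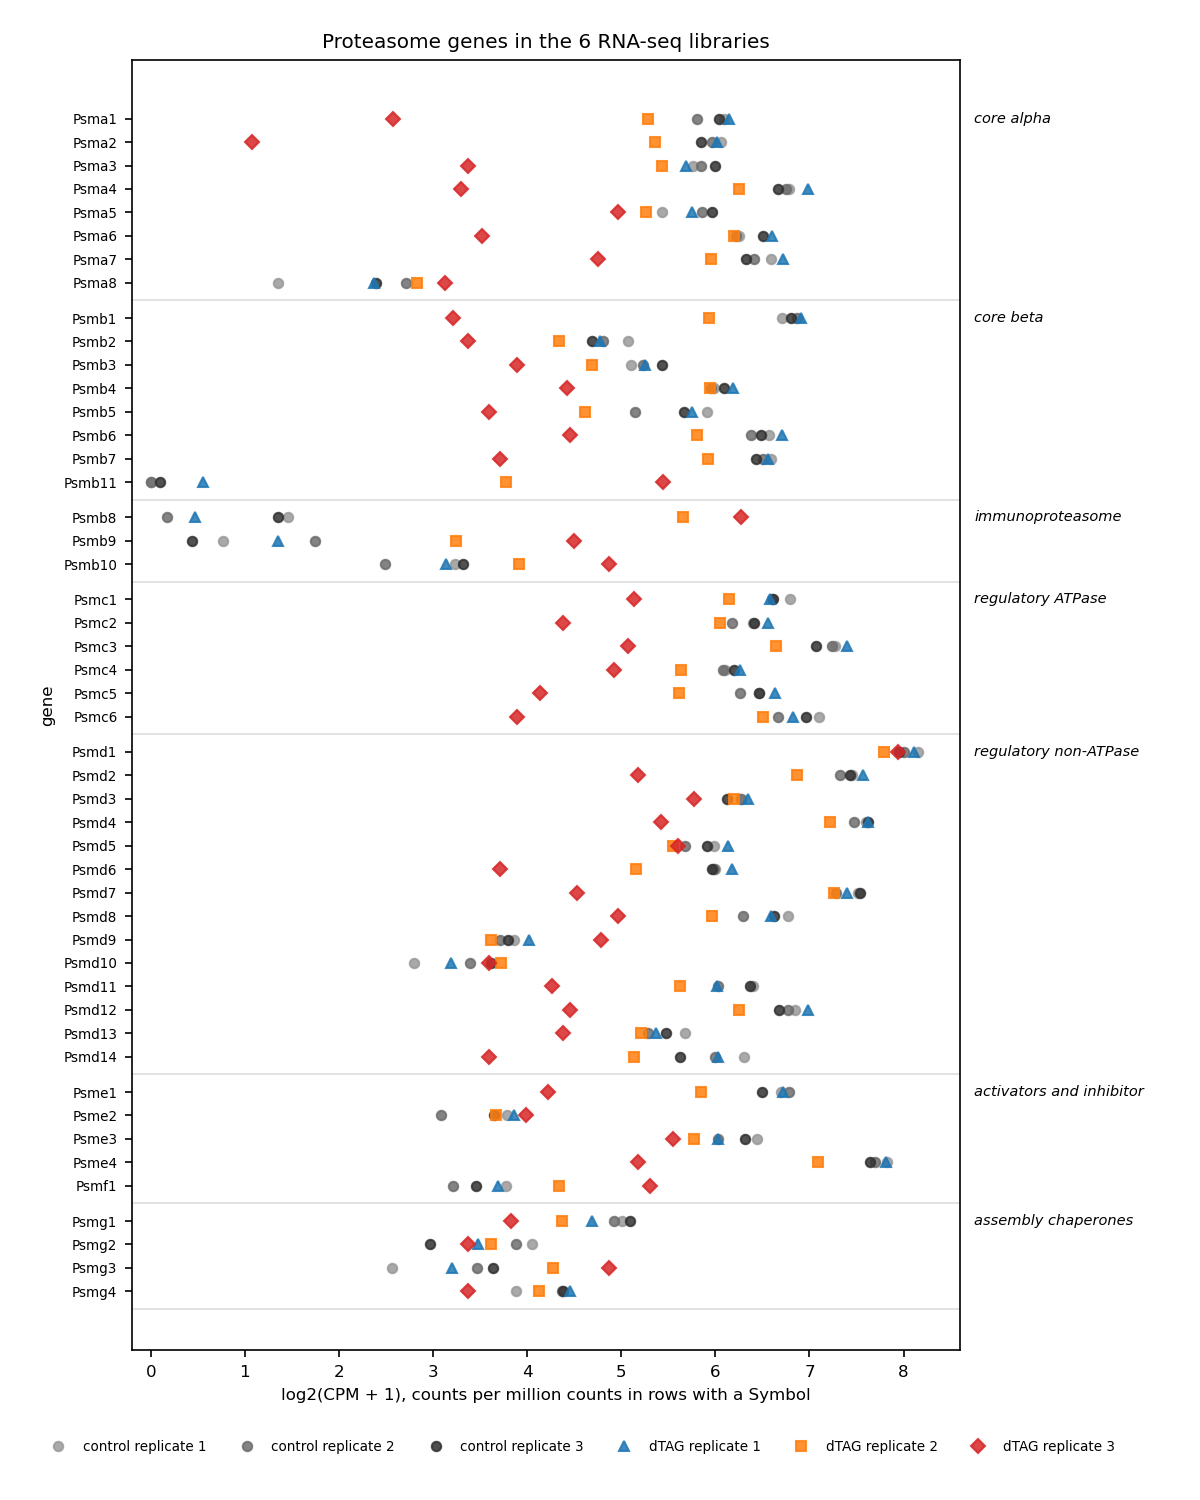
Level of the 48 proteasome genes (rows, grouped by class) as log2(CPM + 1) (x axis), with one symbol per library, grey for the 3 controls and coloured for the 3 dTAG libraries. Most symbols of dTAG replicates 2 and 3 lie left of the controls, while those of Psmb8 lie to the right, at 49.3 and 76.1 CPM against at most 1.76 CPM in the controls.

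In the regulatory particle the 6 ATPases unfold the substrate and open the core. Psmc3 (chr2:91054016-91059438) stood at 153, 149.8 and 133 CPM in the controls and at 168, 99.0 and 32.6 CPM under dTAG. Psmc6 stood at 137, 100.4 and 124 CPM and at 113, 89.6 and 13.8 CPM, the lowest of the ATPases relative to the controls in dTAG replicate 3. Psmc4 stood at 67.9, 66.5 and 72.6 CPM and at 75.7, 48.8 and 29.2 CPM, the highest of them by that measure. All 6 lay below every control in dTAG replicates 2 and 3, and 4 lay above every control in dTAG replicate 1. The shares of all genes with at least 10 CPM were 41.4%, 42.7% and 28.8%. On TMM sizes Psmc4 lay among the controls in dTAG replicate 1. Log2 ratios of the 6 ATPases ran from -3.04 to -1.21 in dTAG replicate 3. The SD of these ratios was 0.63, against 1.21 for the 14 non-ATPase genes and 1.10 for the 14 constitutive core genes, while in dTAG replicate 1 it was 0.156, against 0.154 and 0.140.

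The non-ATPase class spread widely, with log2 ratios from -0.86 to 0.41 in dTAG replicate 2 and from -2.92 to 0.99 in dTAG replicate 3. Of its 14 genes, 12 lay below every control in each of these libraries, against 41.4% and 42.7% of genes with at least 10 CPM. Psmd14 (chr2:61711694-61800376) encodes the deubiquitinase that cuts ubiquitin off the substrate as it enters. It stood at 77.9, 62.7 and 48.4 CPM in the controls and at 64.5, 34.2 and 11.04 CPM under dTAG, so that dTAG replicate 1 lay among the controls and the others below. Psmd4 (chr3:95032688-95042614), a ubiquitin receptor, stood at 193, 177 and 196 CPM and at 195, 148 and 41.9 CPM, in the same order. Psmd11 (chr11:80428615-80473248), whose level is known to influence proteasome assembly in pluripotent cells, stood at 83.5, 64.3 and 81.3 CPM in the controls and at 63.8, 48.3 and 18.2 CPM, with all dTAG values below all control values but a fold change that missed the threshold (log2 fold change -1.22, SE 0.73, adjusted p = 0.359, edgeR). Psmd1 (chr1:86064619-86139295), a large scaffold of the base, differed from these. Its levels were 285, 255 and 247 CPM in the controls and 275, 221 and 244 CPM under dTAG, and dTAG replicate 3 kept 93.0% of the control mean, with a ratio to the pooled controls of 0.931 (95% interval 0.844 to 1.02). On TMM sizes dTAG replicate 3 stood at 28.1% of the control mean, the highest of the structural Psmd genes there too, and the fitted log2 fold change was -0.70 (-0.03 with library totals). The gene Htr2b, a serotonin receptor that ES cells are not known for, lies within the span of Psmd1, and stood at 0.140, 0.128 and 0.639 CPM in the controls and at 0.465, 7.04 and 68.4 CPM under dTAG. Whether counting used the strand is not given, so reads of overlapping genes cannot be told apart, and the part of such reads in the value of Psmd1 was not tested.

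Psmd5, Psmd9 and Psmd10 carry the Psmd name but encode chaperones that help build the regulatory particle and then leave it. In dTAG replicate 3 the 3 chaperones stood at 82.8%, 206% and 124% of their control means, and the other 11 Psmd genes at 12.7% to 93.0%, a difference that was not tested. On TMM sizes the 3 stood at 25.0%, 62.1% and 37.0%, and the others at 3.83% to 28.1%. Psmd10 and Psmd9 had the lowest control means of the Psmd genes, 8.92 and 12.9 CPM, while Psmd5 had 57.3 CPM. In dTAG replicate 3, 95.2% of genes under 10 CPM in the controls stood above every control, against 49.1% of genes from 10 CPM up. The part of control level in the difference was not tested. Psmd5 (chr2:34852087-34870965) stood at 62.5, 50.3 and 59.1 CPM in the controls and at 69.3, 46.0 and 47.5 CPM under dTAG. Psmd9 (chr5:123228190-123250126) stood at 13.5, 12.1 and 12.9 CPM and at 15.3, 11.3 and 26.5 CPM, where dTAG replicate 3 exceeded every control with a ratio of 2.06 (95% interval 1.503 to 2.77). The direction turned on TMM sizes, with 10.7 CPM in dTAG replicate 3 against 16.7 to 17.6 CPM in the controls. Its fitted log2 fold change was -0.32 over 6 libraries, 0.53 with library totals and -0.98 without dTAG replicate 1, where it was called lower (adjusted p = 0.0333, edgeR). Psmd10, which overlaps Atg4a, stood at 5.97, 9.52 and 11.3 CPM and at 8.14, 12.2 and 11.04 CPM, with control and dTAG values overlapping. All 3 are low in counts in dTAG replicates 2 and 3, from 20 to 98 per library. The chaperones of the alpha ring, Psmg1 to Psmg4, summed to 65.3, 72.7 and 71.2 CPM in the controls and to 64.1, 65.7 and 60.1 CPM under dTAG, which leaves the last library at 86.3% of the control mean. Its members differed. Psmg1 (chr16:95979933-95990960) stood at 31.1, 29.3 and 33.1 CPM and at 24.7, 19.7 and 13.2 CPM, with no overlap between the groups. Psmg3 (chr5:139823613-139826894) stood at 4.91, 10.0 and 11.4 CPM and at 8.21, 18.3 and 28.1 CPM, where dTAG replicates 2 and 3 exceeded the controls, though on TMM sizes all dTAG values lay among them. Psmg4 stood at 13.7, 19.7 and 19.8 CPM and at 21.0, 16.4 and 9.38 CPM, with dTAG replicate 3 alone below the controls. Psmg2 stood at 15.6, 13.7 and 6.81 CPM and at 10.1, 11.3 and 9.38 CPM, with all dTAG values among the controls. On TMM sizes Psmg4 and Psmg2 both lay below every control in dTAG replicates 2 and 3. Without dTAG replicate 1 Psmg2 was called lower (log2 fold change -1.53, adjusted p = 0.0260, edgeR), against -0.84 over 6 libraries (adjusted p = 0.393). The fold change of Psmg1 missed the threshold (log2 fold change -1.19, SE 0.55, adjusted p = 0.246, edgeR).

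The activators replace the regulatory particle at the end of the core and do not need ubiquitin. Psme1 (chr14:55578494-55581527) and Psme2 (chr14:55587440-55591101) encode the subunits of one activator that interferon induces, and they are neighbours 5912 bases apart. Psme1 stood at 103, 109 and 89.4 CPM in the controls and at 104, 56.8 and 17.7 CPM under dTAG. Psme2 stood at 12.8, 7.47 and 11.6 CPM and at 13.5, 11.7 and 14.9 CPM, values that overlap between the groups in dTAG replicate 2 and lie above the controls in dTAG replicates 1 and 3. On TMM sizes Psme2 stood below every control in dTAG replicates 2 and 3, at 9.51 and 5.99 CPM against 10.3 to 16.2 CPM. The partners differed in dTAG replicate 3, at 17.6% of the control mean for Psme1 and 140.5% for Psme2, or 5.30% and 42.6% on TMM sizes. Psme2 has a close copy, Psme2b, and its level is uncertain for that reason, while Psme1 overlaps Emc9. Psme3 (chr11:101316213-101323537), the nuclear activator, stood at 86.0, 64.2 and 78.3 CPM and at 64.2, 53.5 and 45.8 CPM. Its level in dTAG replicate 1, 64.15 CPM, lay just under the lowest control at 64.21 CPM, and the other dTAG values lay well below every control. Psme4 (chr11:30771775-30881150), a nuclear activator known for the turnover of acetylated histones, stood at 226, 206 and 198 CPM and at 224, 135 and 35.3 CPM. Psmf1 (chr2:151716062-151744199), known as an inhibitor of the core in vitro, stood above the controls in dTAG replicates 2 and 3, with 12.7, 8.24 and 10.0 CPM in the controls and 11.9, 19.2 and 38.6 CPM under dTAG. On TMM sizes all its dTAG values lay among the controls, with 15.5 CPM in dTAG replicate 3 against 11.3 to 16.1 CPM. It was the member with the highest log2 ratio among the 41 in dTAG replicates 2 (0.84) and 3 (1.81). Tmem74b, which overlaps Psmf1, stood at 0.831 to 2.74 CPM in the controls and at 1.94, 11.3 and 38.1 CPM under dTAG, and its part in the values of Psmf1 was not tested.

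Among the immunoproteasome genes Psmb8 and Psmb9 stood low in the controls and in dTAG replicate 1 and above every control in dTAG replicates 2 and 3 on either scale, while the position of Psmb10 depended on the scale. Psmb8, Psmb9 and Psmb10 summed to 10.9, 7.09 and 10.9 CPM in the controls (9.61 ± 2.18, SD, n = 3) and to 9.76, 71.8 and 126 CPM under dTAG. Psmb8 (chr17:34198195-34201454), which takes the place of Psmb5, stood at 1.76, 0.128 and 1.56 CPM in the controls and at 0.387, 49.3 and 76.1 CPM under dTAG. Psmb9 (chr17:34182030-34187330), which takes the place of Psmb6, stood at 0.702, 2.36 and 0.355 CPM and at 1.55, 8.44 and 21.5 CPM. Psmb10 (chr8:105935728-105938392), which takes the place of Psmb7, stood at 8.42, 4.60 and 8.94 CPM and at 7.83, 14.1 and 28.1 CPM. For all 3, dTAG replicate 1 lay within the control range. All 3 had a control mean under 10 CPM. Of the genes at that level with a count, 82.4% and 95.2% stood above every control in dTAG replicates 2 and 3 on library totals. Standing above the controls is thus common to low genes in these libraries. On TMM sizes Psmb8 stood at 39.9 and 30.6 CPM in dTAG replicates 2 and 3 against 0.176 to 2.22 CPM in the controls, and Psmb9 at 6.85 and 8.66 CPM against 0.483 to 3.25 CPM. Psmb10 stood at 11.4 and 11.3 CPM, among its controls at 6.32 to 12.2 CPM. The value of Psmb9 in dTAG replicate 2 rests on 18 counts. On TMM sizes the share of genes under 10 CPM that stood above every control was not computed. The fitted log2 fold change of Psmb10 was 0.23 over 6 libraries, 1.26 with library totals and 0.03 without dTAG replicate 1. On library totals, relative to the pooled controls, dTAG replicate 3 was 68.4 (95% interval 49.0 to 96.7) times as high for Psmb8, 18.2 (95% interval 11.7 to 28.1) for Psmb9 and 3.89 (95% interval 2.84 to 5.24) for Psmb10. Over all 6 libraries none of the 3 passed the test, and Psmb8 came nearest (log2 fold change 4.03, SE 1.40, adjusted p = 0.136, unadjusted p = 0.0204, edgeR).

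Within each pair of exchangeable subunits, the inducible gene held 50.6% to 87.3% of the counts in dTAG replicate 3, against at most 9.46% in any control. The share of Psmb8 in the counts of Psmb8 and Psmb5 together was 2.87%, 0.371% and 3.04% in the controls and 0.728%, 67.7% and 87.3% in the dTAG libraries (Clopper-Pearson 95% interval 59.8% to 75.0% in dTAG replicate 2 and 81.1% to 92.1% in dTAG replicate 3). For Psmb9 and Psmb6 the share of Psmb9 was 0.742%, 2.79% and 0.399% and then 1.47%, 13.3% and 50.6%. For Psmb10 and Psmb7 the share of Psmb10 was 8.12%, 4.86% and 9.46% and then 7.75%, 19.1% and 69.9%. In each pair dTAG replicate 1 lay within the controls, and dTAG replicates 2 and 3 lay above them in the same order. A share also rises where the constitutive gene falls. On TMM sizes Psmb10 lay among its controls in dTAG replicates 2 and 3, and Psmb7 lay below every control. A gain in share was not limited to the immunoproteasome. Psma8, described below, held at most 6.18% of its pair with Psma7 in the controls and 23.0% in dTAG replicate 3. Shares of counts are not corrected for transcript length, so they compare libraries and not the amounts of the paired subunits.

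**Figure D3:**
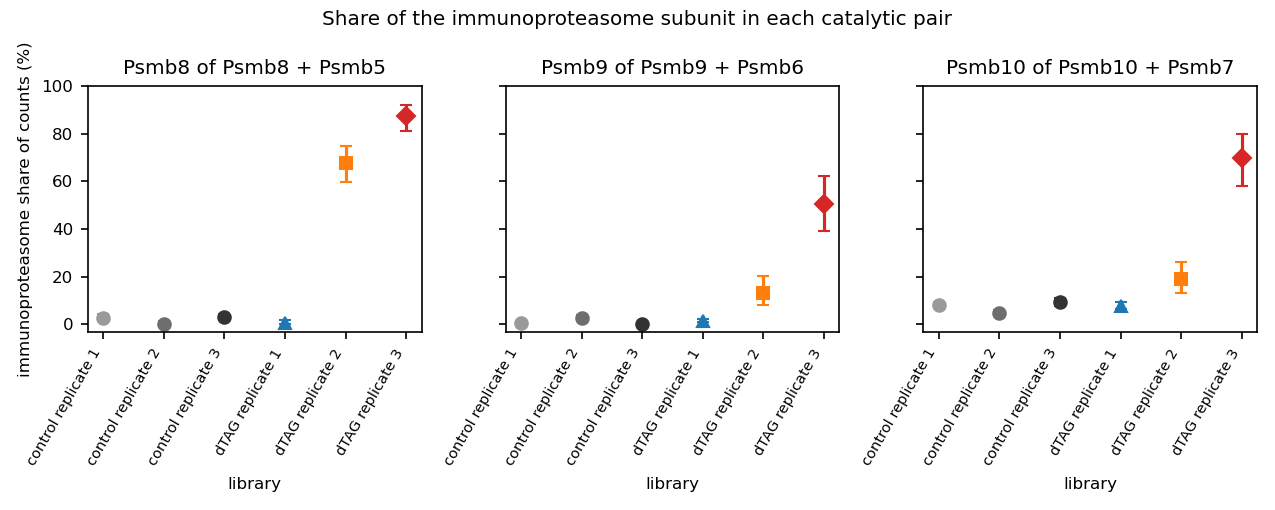
Share of the immunoproteasome gene in the counts of each catalytic pair (y axis, percent) in the 3 control and 3 dTAG libraries (x axis), one panel per pair, with Clopper-Pearson 95% intervals that cover counting error. Psmb8 takes 67.7% and 87.3% of its pair in dTAG replicates 2 and 3 against at most 3.04% in the controls.

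Psmb8 and Psmb9 lie in the major histocompatibility region of chromosome 17, interleaved with the peptide transporter genes Tap1 and Tap2, and the neighbours were high in the same libraries. This region was chosen after the values were seen. Tap1, which begins 225 bases from Psmb9, stood at 6.81, 9.01 and 4.75 CPM in the controls and at 7.59, 167 and 246 CPM under dTAG. Tap2 stood at 1.97, 2.68 and 0.213 CPM and at 2.17, 271 and 259.9 CPM. Of the 13 genes of the table within 100 kb of Psmb9 and Psmb8, the 12 other than Brd2 had a control mean under 10 CPM. All 12 stood above every control in dTAG replicates 2 and 3 and 3 did so in dTAG replicate 1. The shares over the 16792 genes with a count and a control mean under 10 CPM were 82.4%, 95.2% and 33.5%, so these counts lie near those of other low genes. Brd2, a broadly used chromatin reader, stood at 273, 255 and 279 CPM and 303, 234 and 190.4 CPM. The antigen class II genes H2-DMb2 and H2-Ob, which ES cells do not use, stood at 0 to 0.142 CPM and at 0 CPM in the controls. They stood at 0 and 0.620 CPM in dTAG replicate 1 and at 18.8 and 15.0 CPM in dTAG replicate 2. In dTAG replicate 3 they stood at 44.7 and 39.2 CPM. The receptor genes and the blood and immune markers were high in the same libraries as the immunoproteasome genes, and their part in these levels was not tested.

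**Figure D4:**
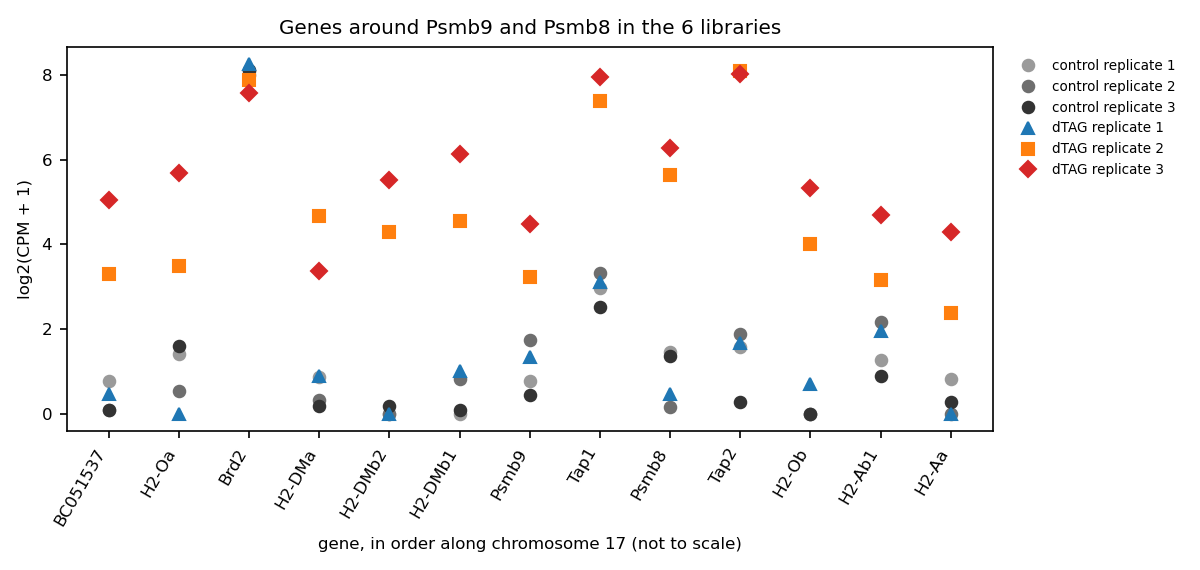
Level of the 13 genes within 100 kb of Psmb9 and Psmb8 as log2(CPM + 1) (y axis), in their order along the chromosome (x axis, not to scale), with one symbol per library. In dTAG replicates 2 and 3 all of them but Brd2 lie above the controls.

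The table also held genes for core subunits that belong to single tissues. Psmb11 (chr14:54625310-54629556), a beta subunit of the thymus that lies 7314 bases from Psmb5, had 0, 0 and 1 counts in the controls and 6, 27 and 77 counts in the dTAG libraries, or 0.465, 12.7 and 42.5 CPM. It was the sole one of the 48 members above every control in all 3 dTAG libraries, against 23.2% of the 25668 genes with a count in any library. The share of those genes below every control in all 3 was 2.31%. Psma8, an alpha subunit of the testis that takes the place of Psma7, stood at 1.54, 5.56 and 4.26 CPM in the controls and at 4.18, 6.10 and 7.72 CPM under dTAG. Its share in the counts of Psma8 and Psma7 was 1.59%, 6.18% and 5.09% in the controls and 3.87%, 9.09% and 23.0% in the dTAG libraries, from 54, 13 and 14 counts of Psma8. On library totals dTAG replicates 2 and 3 exceeded the controls, and on TMM sizes all dTAG values lay among them. Control samples of these genes held few counts, and a count of 0 allows up to 0.211, 0.192 and 0.213 CPM in the 3 controls.

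Over all 6 libraries no proteasome gene was called changed. Of the 18116 genes that passed the filter on low counts, 0 were called higher (0.0%) and 0 lower (0.0%) at an adjusted p under 0.05 by edgeR, and 47 members were among those tested, since Psmb11 failed the filter. At an unadjusted p under 0.05 there were 4202 genes (23.2%), among them 1 member, Psmb8. limma-voom called 0 genes as well. DESeq2 without the filter called 5070 genes higher (19.8%) and 16 lower (0.0623%), with 2 members among the higher, Psmb11 (log2 fold change 8.18, adjusted p = 0.000278) and Psmb8 (4.00, adjusted p = 0.0182). edgeR without the filter called 1398 genes higher (5.45%) and 0 lower (0.0%), with Psmb11 as the single member (log2 fold change 7.44, SE 1.61, adjusted p = 0.0263). Fitted log2 fold changes of Psmb11 depend on the prior count, since its controls are near 0. The fitted fold changes of the members were negative in 42 of 47, with a median of -0.91 against 0.16 over all genes tested. With library totals in place of TMM factors, the median over all genes moved to 1.20 and the members were negative in 38 of 47, with Psma8, Psmd9, Psmd10 and Psme2 turning positive. By class the TMM medians were -0.90 for core alpha, -1.02 for core beta, -0.91 for the ATPases, -0.92 for the other regulatory genes, -1.01 for activators and inhibitor, -0.74 for assembly chaperones and 1.98 for the immunoproteasome.

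Without dTAG replicate 3 edgeR called 0 genes higher (0.0%) and 0 lower (0.0%), and 0 of 47 members. Without dTAG replicate 1, in contrast, 8839 genes were called higher (40.0%) and 4383 lower (19.8%) of 22093 tested by edgeR, and 30 of the 48 members were called lower and 2 higher. The lower ones were 4 alpha and 7 beta genes of the core, 5 of the 6 ATPases, 9 other regulatory genes (Psmd9 among them), 2 activators (Psme1 and Psme3) and 3 chaperones, and the higher ones were Psmb8 and Psmb11. The remaining dTAG libraries in that fit are the shallow ones with counts in genes ES cells do not use. dTAG replicate 1 alone, set against the 3 controls with the spread taken from the controls, gave 11 genes higher (0.0606%) and 5 lower (0.0276%) of 18143, and 0 of 47 members. The member log2 fold changes there had a median of 0.02, against -0.02 over all genes. Over the 41 members with at least 10 CPM they ran from -0.42 to 0.27 with a median SE of 0.17, and the smallest adjusted p of a member was 0.897 (edgeR). This dTAG library is a single one, so the values have no replicate check. With the replicate number as a block, 13 genes were called higher (0.0718%) and 0 lower (0.0%) over the 6 libraries, none of them a member.

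The genes that feed and steer the proteasome held the same order of libraries in part. Of 19 partner genes that bind or help the proteasome, 18 were in the table. None was called higher or lower over the 6 libraries, nor was any other gene tested (median log2 fold change -0.77). Without dTAG replicate 1, 12 of the 18 were called lower. In that fit 19.8% of all genes tested were called lower and 40.0% higher, shares that apply to each list below. Ube3c, a ubiquitin ligase that works at the proteasome, stood at 656, 546 and 548 CPM in the controls and at 570.0, 86.3 and 40.3 CPM under dTAG. Rad23b, a shuttle that brings ubiquitin-marked proteins, stood at 237, 214 and 212 CPM and at 223, 154 and 40.3 CPM. Both lay below every control in dTAG replicates 2 and 3. Of 6 genes for transcriptional control, 0 were called (median -0.74), and without dTAG replicate 1 there were 1 higher and 3 lower. Nfe2l1, the factor described above, stood at 144, 119 and 133 CPM and at 139.5, 124 and 134 CPM, within the range of the controls in all 3 dTAG libraries. On TMM sizes it stood at 100.4 and 53.7 CPM in dTAG replicates 2 and 3, below the controls at 164 to 182 CPM. Nfyb, a subunit of NF-Y, stood at 121, 103 and 104 CPM and at 124, 93.8 and 31.4 CPM. Of 9 genes for ubiquitin and its activation, 0 were called (median -1.01), and 1 was lower without dTAG replicate 1. Ubb, which encodes ubiquitin itself, stood at 2911, 2589 and 2609 CPM in the controls and at 2887, 1854 and 150.1 CPM under dTAG. It lay near the controls in dTAG replicate 1, lower in dTAG replicate 2 and lowest in dTAG replicate 3, as the core genes did. Of 9 antigen presentation genes that are induced with the immunoproteasome, 0 were called (median 1.92, smallest adjusted p = 0.0808, edgeR). Without the filter edgeR called 4 of the 9 higher, against 5.45% of all genes, and DESeq2 5, against 19.8%. Without dTAG replicate 1 edgeR called 6 higher, against 40.0% of all genes, and 2 lower, against 19.8%. The 2 of them with the most counts in the controls were Irf1, a transcription factor of the interferon response, at 22.5, 22.4 and 14.9 CPM and 20.0, 19.2 and 38.6 CPM, and H2-K1, a class I antigen, at 18.4, 12.1 and 18.2 CPM and 14.8, 126 and 223 CPM. H2-K1 exceeded every control in dTAG replicates 2 and 3 on either scale. Irf1 exceeded them in dTAG replicate 3 on library totals and lay below them there on TMM sizes, and dTAG replicate 1 lay within the controls for both genes.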

How the data were processed

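The authors deposited whole-number read counts per gene, not normalized, in one table of 27179 rows for 3 Control and 3 dTAG RNA-seq libraries. The submitters' processing notes name build mm10 and the tools STAR 2.7.2b, featureCounts, limma and edgeR, and nothing used here states their settings, the annotation or the use of strand. The labels call the libraries ribosomal RNA-depleted but name a kit for messenger RNA. Rows without a symbol (903, holding 2.20% to 2.37% of counts in the controls and 2.33%, 6.67% and 14.6% in dTAG replicates 1, 2 and 3) entered neither library sizes nor tests. The labels say that ERCC spike-in RNA was added, and 0 rows carry such names, so total RNA per cell was not measured.

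All 48 members matched the RefSeq gene table of GRCm38.p6, the assembly of mm10, which gave coordinates, overlaps and copies. Genes were tested with edgeR 4.0.16 (R 4.3.3; quasi-likelihood test, two-sided, group alone, TMM, filterByExpr with a minimum count of 10 and minimum total of 15), with p-values adjusted over all genes tested at 0.05. TMM factors were 0.727 to 0.789 in the controls and 0.774, 1.23 and 2.49 in dTAG replicates 1, 2 and 3. Alternatives used RLE factors, library totals, other filters, DESeq2 1.42.0, limma-voom (limma 3.58.1), a replicate block and each library left out. Levels of single genes on TMM library sizes were added after the data were seen. The scripts were tested on simulated data that varied far less between libraries of a group than these libraries do. A pass was required for edgeR at equal depth only, so that run does not vouch for the tests on these unequal libraries. Intervals are exact at 95% and cover counting error only, since reads carry no molecular identifiers.

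Members, lists and tests were chosen with earlier results of these data known. Members named with values are, per class, the 2 highest and the 1 lowest by mean control CPM, all immunoproteasome, activator and tissue-restricted genes, the catalytic genes and Psmd14, and the 2 highest and 2 lowest log2 ratios in each dTAG library among members with at least 10 CPM; others were named after their values were seen.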

Additional observations from a re-analysis of the deposited data

How the results depend on the processing

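The depth of dTAG replicates 2 and 3 limits low values there, since a count of 0 allows up to 1.41 and 1.66 CPM. Of 490 values recomputed under alternatives, 418 kept their direction and side of the threshold or moved by less than the spread. Another 25 moved, 17 passed the threshold where they had not, and 30 fold changes of single genes changed sign. The cause was not tested. For the fitted member medians the spread was the SD of the dTAG library medians, 1.09, which exceeds the size of the main value, -0.91. The 418 therefore include the change of that median to 0.02 with dTAG replicate 1 alone, where the sign turned. The count of genes called, 0 over the 6 libraries, was 1398 without a filter on low counts, 5086 by DESeq2 without the filter, 13 with the replicate block and 16 with dTAG replicate 1 alone, and from 0 to 13222 with 1 library left out, the most without dTAG replicate 1. The count of proteasome genes called, 0, was 1 without a filter and 2 by DESeq2 without the filter, and from 0 to 32 with 1 library left out, the 32 without dTAG replicate 1. The replicate block called 0 proteasome genes. Same-numbered deviations from the group means correlated at 0.03, -0.03 and 0.03, and 3 of 6 samples correlated best with their own number. The large differences among the dTAG libraries could hide a pairing. These values therefore do not decide whether the replicate numbers pair the samples.

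The median log2 fold change of the tested members, -0.91, ran from -2.08 to -0.42 with 1 library left out. The median minus that of all genes, -1.07, ran from -2.76 to -0.48, and was -2.19 by DESeq2 and 0.036 with dTAG replicate 1 alone. On TMM library sizes the median log2 ratio over all 48 members, -0.49 in dTAG replicate 2 and -1.60 in dTAG replicate 3, was -1.20 and -3.24. In dTAG replicate 3 it was -1.46 with a pseudocount of 5 CPM, -1.78 with CPM over all rows and -1.82 over members with at least 10 CPM over all 6 libraries. The summed constitutive core on TMM library sizes was 1253, 1295 and 1341 CPM in the controls and 1378, 542 and 75.2 CPM under dTAG, and over all rows it was 624 CPM in dTAG replicate 2 and 159.8 CPM in dTAG replicate 3.

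With dTAG replicate 1 alone the log2 fold change changed sign for Psma4 (0.17), Psma7 (0.19), Psma8 (0.040), Psmb1 (0.029), Psmb5 (0.070), Psmb6 (0.15), Psmb8 (-1.60), Psmc3 (0.12), Psmc4 (0.049), Psmd5 (0.19), Psmd9 (0.16), Psme2 (0.27), Psme4 (0.011), Psmg3 (-0.19) and Psmg4 (0.15). With library totals it did so for Psma8 (0.72), Psmd9 (0.53), Psmd10 (0.28) and Psme2 (0.39). Psma8 was also 0.13 by limma-voom and 0.019 with the replicate block, and Psmg3 was -0.10 without a filter. With 1 library left out, Psma8 ran from -0.68 to 0.10, Psmb10 from -0.19 to 0.26, Psmf1 from -0.054 to 0.19 and Psmg3 from -0.39 to 0.18.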
